A study of Mus musculus with 6 samples.

Results

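The genes described here are 10 interferon-inducible GTPases, measured as messenger RNA in mouse aorta. They are the immunity-related GTPases (IRGs) Igtp, Iigp1, Irgm1, Irgm2 and Ifi47 and the guanylate-binding proteins (GBPs) Gbp2, Gbp3, Gbp4, Gbp7 and Gbp9. They were taken by symbol, and all 10 were found among the 53735 rows of the count table and passed the filter on low counts with 14145 rows. The list was drawn up with results of these libraries in view, from genes that stood high in a KO library, so the KO and WT values of the 10 members are a description and carry no test.

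The libraries come from aortas of Mus musculus, 3 from Mymsl knockout animals (KO) and 3 from wild-type controls (WT), and the question was which aortic transcripts change when Mymsl, a long noncoding RNA gene, is lost. According to the labels, the RNA came from the purified smooth muscle cells of the medial layer, and no treatment is named. The labels give neither strain, age and sex nor the kind of knockout allele, nor whether a library came from a single mouse, so the p-values below measure the spread between libraries, which may be partly technical. KO replicate 3 stood apart from the other 5 libraries for all 10 members, and log2 fold changes that rest on it are also given without it.

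Both families are known as cell-autonomous defence proteins. Interferon gamma binds its 2-chain receptor, the kinases Jak1 and Jak2 carry the signal onward, and the transcription factor Irf1 takes part in switching on IRG and GBP genes. Effector IRGs such as Iigp1 load onto the membrane around intracellular parasites, regulatory IRGs (Irgm1, Irgm2 and Igtp) sit on the cell's own membranes and hold the effectors off them, and GBPs assemble on pathogen vacuoles and feed inflammasome signalling. In textbooks they are low in resting tissue and rise strongly under interferon gamma, and many respond to type I interferons as well.

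The control elements through which interferons are known to act are the ISRE, bound by interferon regulatory factors and Stat2 complexes, and the GAS element, named for its response to interferon gamma. Promoter windows of RefSeq (GRCm38.p6) run from 250 bases before to 50 bases after a transcript start, and 7 of the 10 members had one: Igtp, Irgm1, Irgm2, Ifi47, Gbp2, Gbp3 and Gbp7. On both strands they were searched for the ISRE letters (GAAA, any 2 bases, GAAA) and for the GAS letters (TTC, any 3 bases, GAA), and the GAS pattern reads the same on either strand. The stretches around the matches are shown because members of both families carry them within a short distance of the RefSeq start. Capitals mark the matches. Tgtp1, an effector IRG outside the list, is shown for comparison.

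Igtp, chr11:58199486-58199555, plus strand: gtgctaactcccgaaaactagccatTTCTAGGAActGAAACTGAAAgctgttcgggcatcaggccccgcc
Irgm2, chr11:58214877-58214947, plus strand: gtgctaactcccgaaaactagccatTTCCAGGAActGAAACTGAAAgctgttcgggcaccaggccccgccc
Tgtp1, chr11:48992289-48992359, minus strand: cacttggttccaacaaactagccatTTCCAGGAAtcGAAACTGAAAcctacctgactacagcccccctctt
Irgm1, chr11:48871421-48871475, minus strand: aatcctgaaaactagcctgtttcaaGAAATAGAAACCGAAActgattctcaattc
Gbp2, chr3:142620579-142620638, plus strand: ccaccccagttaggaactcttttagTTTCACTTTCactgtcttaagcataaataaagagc
Gbp3, chr3:142559974-142560039, plus strand: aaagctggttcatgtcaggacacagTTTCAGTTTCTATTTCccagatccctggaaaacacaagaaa
Gbp7, chr3:142530205-142530317, plus strand: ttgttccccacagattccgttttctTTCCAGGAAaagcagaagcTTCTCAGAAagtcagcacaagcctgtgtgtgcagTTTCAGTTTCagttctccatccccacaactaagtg

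Of the 7 members with a window, 6 held the ISRE letters, and 3 (Igtp, Irgm2 and Gbp7) held the GAS letters as well. Among all 27025 genes with a window, 3.99% held the ISRE letters, 9.55% the GAS letters and 0.54% both. In Igtp, Irgm2 and Tgtp1 the GAS match stood 2 bases before the ISRE match. The Igtp and Irgm2 stretches were identical at 68 of 70 positions, and these 2 genes are neighbours whose GENCODE M21 models overlap. Irgm1 and Gbp3 each held 2 overlapping ISRE matches. In the GBP promoters the ISRE letters lay on the opposite strand to transcription, and in the IRG promoters on the same strand. The first Gbp3 window held the match and the second Gbp3 window held none, and no match was found in the Ifi47 window, which says only that these letters are not in it. GENCODE M21 places the first exon of Gbp2 and of Gbp3 a little further upstream than RefSeq, inside the stretches shown. Its gene models of Irgm1, Irgm2 and Tgtp1 begin upstream of the whole stretch shown, at 48871683, 58199618 and 48994172. A letter match is not a measured binding site.

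**Figure D1:**
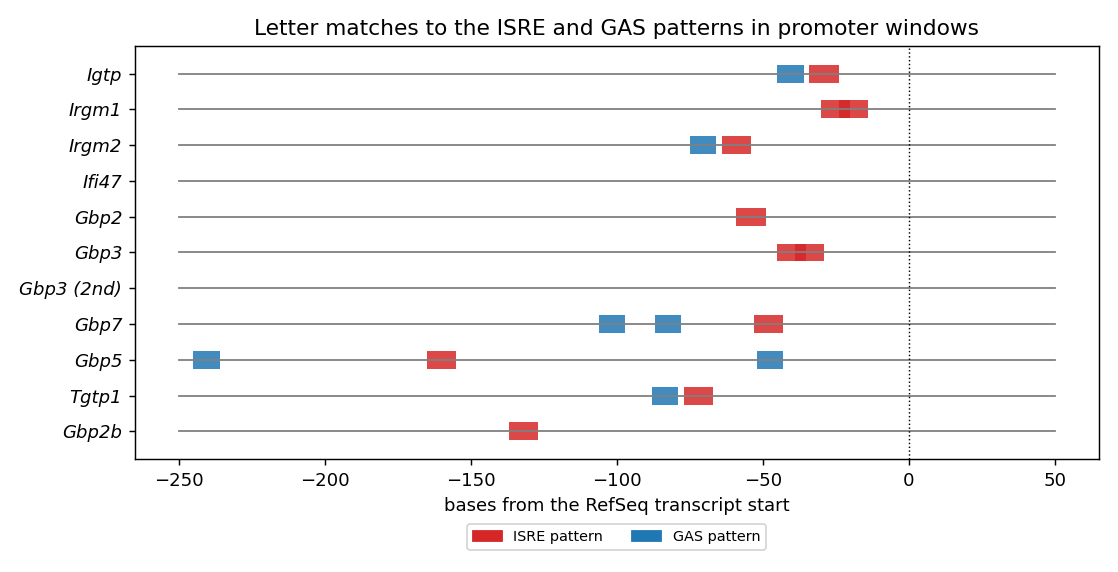
Positions of letter matches to the ISRE (red) and GAS (blue) patterns along the 300-base RefSeq promoter windows of the 7 members with a window (Gbp3 has 2) and of Gbp5, Tgtp1 and Gbp2b; the x axis is the distance in bases from the transcript start. The ISRE matches of the members and Tgtp1 lie between −77 and −15, those of Gbp5 and Gbp2b further upstream.

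The main result is a single library. Levels are CPM (counts scaled to library size, TMM-normalized), and total counts per library lay between 20048216 and 25521123. In KO replicate 3 every member was higher than in each of the other 5 libraries, by 2.78-fold (Gbp9) to 10.3-fold (Igtp) over the highest of them. The members' summed level was 113.6 ± 5.49 CPM in WT (SD, n = 3), 132.1 and 126.1 CPM in KO replicates 1 and 2, and 674.7 CPM in KO replicate 3. KO replicates 1 and 2 thus lay somewhat above the WT libraries (107.4, 115.7 and 117.8 CPM) and far below KO replicate 3. The KO group is high mainly through 1 of its 3 libraries.

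Among the regulatory IRGs, Igtp measured 5.31, 6.32 and 6.96 CPM in the WT libraries (always in the order of replicates 1 to 3) and 7.17, 6.16 and 73.6 CPM in the KO libraries. Igtp, which sits on the endoplasmic reticulum, was within the WT range in KO replicate 2, just above it in KO replicate 1, and in KO replicate 3 stood 11.9-fold above the WT mean, the highest ratio of the 10. Irgm2, a regulator at the Golgi apparatus, measured 12.8, 12.7 and 14.5 CPM in WT and 15.8, 14.1 and 104.7 CPM in KO. Here KO replicate 2 lay among the WT values and KO replicate 1 slightly above them. Irgm1, the regulator linked to autophagy and lysosomes, measured 16.6, 19.1 and 18.4 CPM in WT and 19.4, 19.3 and 63.5 CPM in KO. Irgm1 had the smallest ratio of the 5 IRGs, with KO replicate 3 at 3.52-fold the WT mean, and its other 2 KO libraries lay just above all WT libraries.

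Of the effector IRGs, Iigp1 measured 17.0, 18 and 18.7 CPM in WT and 18.9, 19.2 and 145.0 CPM in KO. Iigp1, the best studied effector of parasite vacuoles, stood 8.11-fold above the WT mean in KO replicate 3, and its other 5 libraries spanned 1.13-fold from lowest to highest. Ifi47 measured 2.62, 1.63 and 2.36 CPM in WT and 3.20, 2.63 and 22.4 CPM in KO. Ifi47 had the fewest counts of the members, 41 to 63 in the other 5 libraries and 518 in KO replicate 3, so its ratio of 10.2 to the WT mean rests on few WT counts.

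Among the GBPs, Gbp2, a lipid-anchored member recruited to pathogen vacuoles, measured 28.9, 30.9 and 31.2 CPM in WT and 36.8, 36.5 and 128.2 CPM in KO. KO replicates 1 and 2 of Gbp2 also lay above all WT libraries, well below KO replicate 3. Gbp3 measured 4.73, 8.18 and 7.00 CPM in WT and 10.1, 8.65 and 52.6 CPM in KO. The 5 lower libraries of Gbp3 spanned 2.14-fold, the widest range of the 10, and KO replicate 3 lay 5.21-fold above the highest of them. Gbp4 measured 4.28, 4.57 and 6.29 CPM in WT and 5.26, 5.06 and 37.4 CPM in KO, where KO replicates 1 and 2 fell among the WT values.

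Gbp7, a GBP linked to defence against bacteria, measured 8.38, 9.10 and 6.91 CPM in WT and 9.64, 8.6 and 28.5 CPM in KO. Gbp9 measured 6.77, 5.16 and 5.47 CPM in WT and 5.67, 5.92 and 18.8 CPM in KO. In KO replicates 1 and 2 both genes lay within or near the WT range. They had the smallest ratios of KO replicate 3 to the WT mean among the GBPs, 3.51 for Gbp7 and 3.24 for Gbp9. By family, the median of that ratio was 8.11 for the 5 IRGs (range 3.52 to 11.9) and 4.22 for the 5 GBPs (range 3.24 to 7.93), so the families overlapped. IRGs and GBPs contributed 54.3 to 60.9 and 53.1 to 57.9 CPM in the WT libraries, and 409.2 and 265.5 CPM in KO replicate 3.

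**Figure D2:**
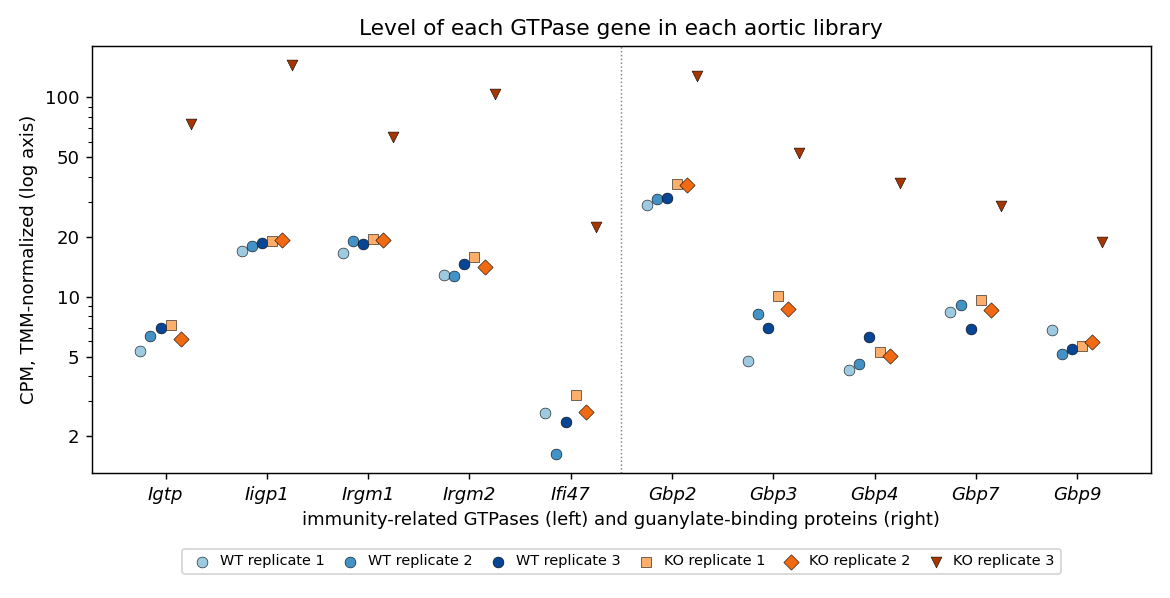
Level in CPM (log axis) of the 5 IRGs (left) and 5 GBPs (right) in each of the 6 libraries; each point is a library, blue circles WT, orange symbols KO. The triangle of KO replicate 3 lies above the other 5 points for every gene, from 18.8 CPM for Gbp9 to 145.0 CPM for Iigp1.

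Levels were compared between genes only per length, as CPM per kilobase of the summed exons in GENCODE M21. In WT, Gbp2 stood first with 12.1 ± 0.49 CPM per kb (SD, n = 3), followed by Irgm2 with 3.62 ± 0.276. Irgm1 (3.11 ± 0.223), Iigp1 (3.07 ± 0.147) and Igtp (3.06 ± 0.41) did not differ beyond their spread. Gbp3 (2.03 ± 0.537), Gbp7 (1.45 ± 0.198), Gbp9 (1.12 ± 0.165), Ifi47 (0.89 ± 0.207) and Gbp4 (0.673 ± 0.146) followed, each overlapping the next in its WT libraries. In KO replicate 3, Gbp2 (50.9 CPM per kb) was still first, but Igtp (36.4) came second, ahead of Irgm2 (28.4) and Iigp1 (24.9), while Irgm1 (10.9) came sixth.

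As group values, the log2 fold changes of KO over WT ranged from 0.81 ± 0.454 (SE) for Gbp9 to 2.23 ± 0.916 for Igtp, with a median of 1.71 over the 10 members against 0.01 over all 14145 rows tested. In edgeR 0 of the 10 members were called at an adjusted p of 0.05, where 0.00707% of all tested rows were called (1 row, lower in KO). At an unadjusted p under 0.05 there were 6 members and 2060 rows in all. DESeq2, which gave no adjusted p for Igtp, Ifi47 and Gbp9, and limma-voom called 0 members too. KO and WT libraries did not overlap, with KO higher, for 5 of the 10 members (Iigp1, Irgm1, Ifi47, Gbp2 and Gbp3) and for 10.5% of all tested rows (21.8% counting both directions). As the members were chosen on this contrast, nothing is read from these counts.

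Without KO replicate 3 the median log2 fold change of the members was 0.13, and the 10 values lay between 0.00 (Gbp9) and 0.50 (Gbp3). Gbp2 then had 0.27 ± 0.076 (SE) and Gbp3 0.50 ± 0.236, whereas Igtp had 0.10 ± 0.176 and Gbp4 0.03 ± 0.214. Relative to the WT mean, the mean of KO replicates 1 and 2 was 1.41-fold for Gbp3, 1.32-fold for Ifi47 and 1.21-fold for Gbp2, and between 1.0-fold and 1.12-fold for the other 7 members. On a log2 scale relative to the WT mean, the members' medians were −0.07, 0.02 and 0.09 across the WT libraries and 0.23, 0.09 and 2.93 across the KO libraries. KO replicate 1 thus stood slightly above the WT range and KO replicate 2 close to its upper edge. Limma-voom gave a median of 1.10 with all libraries.

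**Figure D3:**
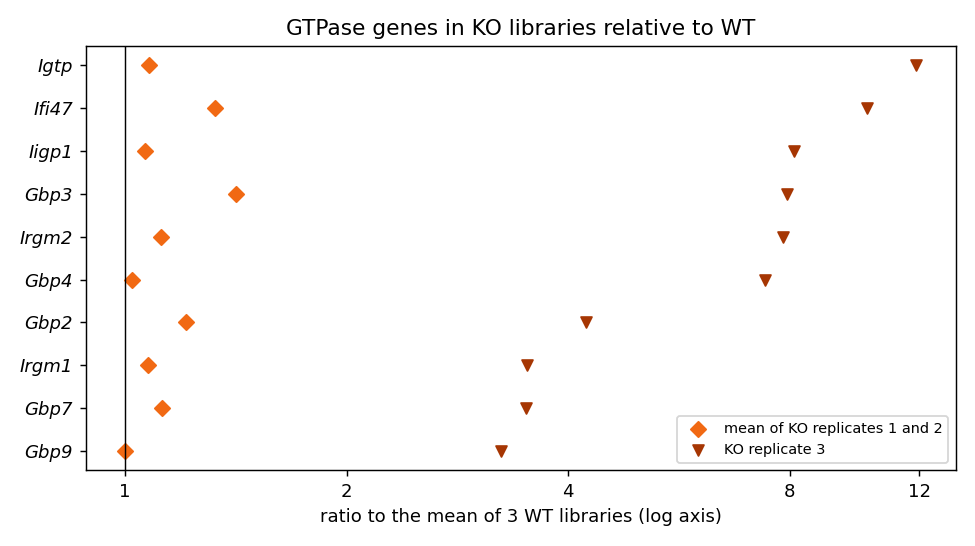
Ratio of the KO libraries to the mean of the 3 WT libraries (log axis) for each member, sorted by KO replicate 3; diamonds are the mean of KO replicates 1 and 2, triangles KO replicate 3, and the line marks equal levels. Triangles lie between 3.24 and 11.9, diamonds between 1.0 and 1.41.

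The size of this gap was set against the whole table by counting, for each library, the tested rows at which it reached at least 2 times the highest of the other 5. KO replicate 3 did so at 105 rows (0.742%), KO replicate 1 at 62 (0.438%) and KO replicate 2 at 2 (0.0141%). In WT the counts were 20 (0.141%), 10 (0.0707%) and 9 (0.0636%). All 10 members were among the 105 rows of KO replicate 3, and 0 were among the rows of any other library. As the members were taken from genes high in a KO library, their place here and in the ranking below follows from that choice. Of the remaining 95, 28 belonged to the lists of other family genes and of interferon signalling and response genes described below. Ranked by that ratio, Tgtp2 came first with 17.9, Igtp second with 10.3 and then the chemokine Cxcl9 with 9.25, and 6 members stood among the first 20.

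The genes whose pattern over the 6 libraries came closest to the members were found as the smallest root mean square difference between log2 CPM profiles, each relative to its WT mean. Over 12762 candidates of at least 1 CPM the median difference was 1.21, and among the members themselves it lay between 0.04 and 0.54. The 8 closest were Isg15 (0.19), Rtp4 (0.24), Psmb9 (0.28), Oasl2 (0.30), Ifit1 (0.32), Gbp6 (0.33), Zbp1 (0.34) and Nlrc5 (0.39). Isg15 encodes a ubiquitin-like protein, Psmb9 a subunit of the immunoproteasome, Zbp1 a sensor of Z-form nucleic acids and Nlrc5 the activator of MHC class I genes. All 8 belong to the interferon and family lists, which were drawn up with earlier results of these data known. In KO replicate 3 Isg15 measured 10.4 CPM against 1.55 to 2.32 in the other 5.

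Of the other IRG and GBP genes, 15 were in the table and 7 passed the filter. Of these 7, edgeR called 0 (3 at an unadjusted p under 0.05), limma-voom called 0, and DESeq2 called 0 but gave an adjusted p for only 2 of them. Their median log2 fold change was 1.51, and 0.11 without KO replicate 3. Tgtp2, an effector IRG, measured 0.498, 0.834 and 0.952 CPM in WT and 0.619, 0.908 and 17.0 CPM in KO (log2 3.03 ± 1.215, adjusted p = 0.322 in edgeR, and 0.01 ± 0.416 without KO replicate 3). Gbp5, which promotes inflammasome assembly, measured 5.52, 8.22 and 5.38 CPM in WT and 9.18, 10.3 and 34.8 CPM in KO (1.51 ± 0.512, adjusted p = 0.279 in edgeR). All 3 KO libraries of Gbp5 lay above all WT libraries, and without KO replicate 3 its log2 fold change was 0.61 ± 0.214 (adjusted p = 0.34).

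Gbp6 showed the pattern of the members, with 0.54 to 1.19 CPM in the other 5 libraries and 6.75 CPM in KO replicate 3 (log2 2.01 ± 0.86, adjusted p = 0.342 in edgeR, and 0.30 ± 0.468 without that library). The IRG-like gene F830016B08Rik had 4 to 12 counts in the other 5 libraries and 93 in KO replicate 3 (1.93 ± 1.083, adjusted p = 0.425 in edgeR), and leaving out that library turned its log2 fold change to −0.80 ± 0.536. In the fit with all libraries F830016B08Rik passed the filter on low counts only with the help of KO replicate 3. Its part in the median of the other family genes above therefore rests on that library too. The IRG-like row 9930111J21Rik2 had 0.62 ± 0.313 (0.29 without KO replicate 3), and 9930111J21Rik1 had 0.26 ± 0.368, which turned to −0.08. Irgq, an IRG relative not known to respond to interferon, measured 33.7 ± 1.23 CPM in WT and 34.9 ± 2.71 CPM in KO (0.05 ± 0.078, adjusted p = 0.798 in edgeR), and its value in KO replicate 3, 31.9 CPM, was the lowest of the 6. The high values of KO replicate 3 thus did not extend to this family member. The 14 constitutive dynamin-like GTPases (such as Dnm2, Mfn2 and Atl3) had a median log2 fold change of −0.07 (−0.06 without KO replicate 3). None of the 14 had its highest value in KO replicate 3, where 2296 of all 14145 tested rows had theirs. EdgeR and limma-voom called 0 of the 14 (3 at an unadjusted p under 0.05 in each). DESeq2 called Ehd2, which is in this list though it is a membrane-shaping ATPase of caveolae. Over all rows DESeq2 called 204 of the 9208 with an adjusted p. Ehd2 measured 675.3, 722.6 and 679.3 CPM in WT and 567.6, 572.2 and 566.1 CPM in KO (−0.28 ± 0.067, adjusted p = 0.261 in edgeR and 0.00357 in DESeq2), lower in all KO libraries, and −0.28 without KO replicate 3.

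The pathway above these genes was described by role. The ligand gene Ifng had 0 counts in all 6 libraries, as had Ifnb1. A count of 0 allows up to 3 counts, or 0.119 to 0.155 CPM depending on the library, and this covers counting error only. The receptor chains were readily detected: Ifngr1 measured 61.1 ± 4.79 CPM in WT and 66.7 ± 4.96 CPM in KO (n = 3 each, log2 0.13 ± 0.081, adjusted p = 0.473 in edgeR). Ifngr2 measured 103.0 ± 1.52 and 106.0 ± 14.6 CPM (0.04 ± 0.098, adjusted p = 0.865). Jak1 and Jak2 had −0.13 ± 0.059 and −0.14 ± 0.063 (adjusted p = 0.365 and 0.362 in edgeR). Jak1 measured 114.4, 112.6 and 117.3 CPM in WT and 108.6, 99.9 and 106.8 CPM in KO. Jak2 measured 85.2, 92.4 and 84.3 CPM in WT and 80.9, 81.8 and 75.4 CPM in KO. For both kinases every KO library thus lay below every WT library. Of all tested rows, 21.8% had no overlap between KO and WT libraries in either direction. Without KO replicate 3 the log2 fold changes of Jak1 and Jak2 were −0.14 and −0.10.

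Downstream of the receptor, Irf1, a transcription factor of IRG and GBP genes, measured 21.4, 20.3 and 19.5 CPM in WT and 25.6, 22.7 and 50.7 CPM in KO (0.70 ± 0.28, adjusted p = 0.324 in edgeR). Irf1 in KO replicate 3 was 1.98-fold the highest other library, and without it the log2 fold change was 0.24 ± 0.094. Stat2 (0.83 ± 0.267, adjusted p = 0.279 in edgeR) and Irf9 (0.72 ± 0.364, adjusted p = 0.388), partners in the ISRE-binding complex, were also highest in KO replicate 3, at 45.0 and 45.1 CPM, and without it had 0.44 ± 0.134 and 0.09 ± 0.097. Stat2 measured 14.4, 18.4 and 18.5 CPM in WT and 24.5, 21.9 and 45.0 CPM in KO, higher in every KO library. KO libraries were all higher at 10.5% of all tested rows. For Irf9 the KO and WT libraries overlapped. The inhibitors Socs1 (0.05 ± 0.271, adjusted p = 0.948) and Socs3 (−0.04 ± 0.342, adjusted p = 0.966) were not called, and without KO replicate 3 had −0.24 ± 0.251 and −0.59 ± 0.19, which turned the direction of Socs1. Pias1, another inhibitor of the pathway, had −0.19 ± 0.072 (adjusted p = 0.3 in edgeR, and −0.17 without KO replicate 3).

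Over the signalling and target lists together, 41 genes were tested and edgeR called 0, in either direction (9 at an unadjusted p under 0.05). Limma-voom called 0 as well. DESeq2 called Stat2 (adjusted p = 0.0491), and over all rows 204 of the 9208 with an adjusted p. The 14 signalling genes had a median log2 fold change of 0.04, with 8 above 0, and −0.02 without KO replicate 3. The 27 other targets of interferon gamma had a median of 0.68 with 26 above 0, and 0.13 without KO replicate 3; over all tested rows 52.5% were above 0. Of the targets, 24 of 27 had their highest value in KO replicate 3, and 11 reached at least 2 times every other library. Of all 14145 tested rows, 2296 had their highest value in that library, and 105 reached at least 2 times every other one. Examples are Cxcl9 (4 to 20 counts in the other 5 libraries, 170 in KO replicate 3, with a log2 fold change of 2.29 that turned to −0.56 without it) and Psmb8, an immunoproteasome subunit (3.85 to 7.79 CPM, then 20.4).

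The 6 targets with the smallest p were all highest in KO replicate 3 as well. Xaf1, a proapoptotic interferon target, measured 5.23, 3.81 and 4.10 CPM in WT and 7.53, 6.83 and 11.98 CPM in KO (log2 1.01 ± 0.243, adjusted p = 0.263 in edgeR), and 0.71 ± 0.188 without KO replicate 3. All 3 KO libraries of Xaf1 lay above all WT libraries. Bst2, an antiviral membrane tether, had 0.81 ± 0.271 (adjusted p = 0.279), with KO replicate 1 (29.9 CPM) and KO replicate 3 (39.8 CPM) above the other 4 libraries (15.7 to 17.7), and 0.50 ± 0.223 without KO replicate 3. Parp14 (0.48 ± 0.163), Psmb8 (1.43 ± 0.53), Gch1 (0.89 ± 0.362) and Dtx3l (0.27 ± 0.115) did not pass either, with adjusted p between 0.279 and 0.342 in edgeR. Without KO replicate 3 these 4 had 0.28, 0.55, 0.45 and 0.13.

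Genes of the type I interferon response had a median log2 fold change of 0.85 over 24 tested genes, 23 of them above 0, and 0.27 with 19 above 0 without KO replicate 3. EdgeR called 0 (9 at an unadjusted p under 0.05), limma-voom 0, and DESeq2 0 of the 8 to which it gave an adjusted p. Their medians relative to WT were 0.20, 0.24 and 1.49 in KO replicates 1, 2 and 3. Mx2, a dynamin-like antiviral GTPase related to the GBPs, measured 0.83, 1.19 and 1.28 CPM in WT and 2.68, 2.20 and 2.16 CPM in KO (1.08 ± 0.253, adjusted p = 0.261 in edgeR). Mx2 was higher in all 3 KO libraries, as were 5 of the 10 members, but unlike the members it was not highest in KO replicate 3, and without that library it had 1.14 ± 0.292. Ifit1 (2.02 ± 0.71), Ifit3 (1.34 ± 0.473), Tyk2 (0.28 ± 0.091), Isg20 (0.84 ± 0.301) and Oasl2 (1.49 ± 0.571) had adjusted p between 0.279 and 0.311 in edgeR. Without KO replicate 3 these 5 had 0.62, 0.84, 0.31, 0.81 and 0.45.

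Of 19 tested genes of autophagy conjugation and the inflammasome, whose proteins work with these GTPases at membranes, edgeR called 0 (3 at an unadjusted p under 0.05) and DESeq2 and limma-voom 0. The median log2 fold change was 0.07 (0.08 without KO replicate 3), and 0 reached 2 times the other libraries in KO replicate 3. Gabarapl2, an adaptor that guides GBPs and IRGs, measured 28.3 ± 0.642 CPM in WT and 27.6 ± 2.21 CPM in KO. Atg5, part of the conjugation machinery, had −0.20 ± 0.079 (adjusted p = 0.323 in edgeR), Trim21 0.45 ± 0.18 (0.325), Gsdmd, the pore-forming gasdermin, 0.63 ± 0.255 (0.326) and Casp4, which GBPs help to activate, 0.40 ± 0.183 (0.365). Atg16l1 (0.13 ± 0.066) and Pycard (0.26 ± 0.137) did not pass either. Of these 6, Trim21 moved most without KO replicate 3, to 0.21 ± 0.12.

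**Figure D4:**
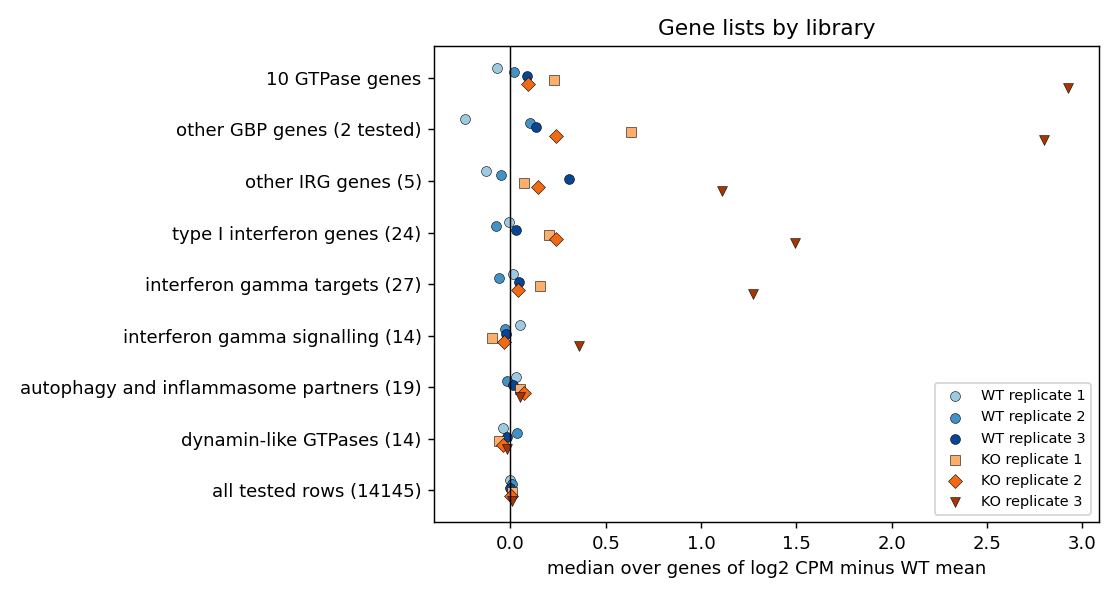
Median over the tested genes of each list of log2 CPM minus the WT mean, for each of the 6 libraries (circles WT, other symbols KO); the number of genes tested is in brackets. KO replicate 3 lies at 2.93 for the 10 members and at 0.36 for interferon gamma signalling, while the autophagy partners and dynamin-like GTPases stay within 0.08 of 0 in all libraries.

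In the genome (GRCm38, GENCODE M21) the members lie in 5 clusters. Gbp7 (chr3:142530342-142550149), Gbp3 (chr3:142560026-142573209) and Gbp2 (chr3:142620602-142638008) share a cluster with Gbp5 and Gbp2b on the plus strand. Gbp9 (chr5:105077630-105139539) and Gbp4 (chr5:105115767-105139586) lie on the minus strand with Gbp8, Gbp10, Gbp6 and Gbp11. On chromosome 11, Irgm1 (chr11:48861968-48871683, minus strand) and Ifi47 (chr11:49076587-49096974, plus strand) bound a cluster with Tgtp1 and Tgtp2, and Igtp (chr11:58199556-58207591) and Irgm2 (chr11:58199618-58222782) form another on the plus strand. Iigp1 lies on chromosome 18 (chr18:60376027-60392634, plus strand).

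The 2 nearest tested rows on either side of each cluster gave 20 flanking rows, with a median of KO replicate 3 over the WT mean of 0.98-fold. The highest was the clone-named row AC132242.1 beside the Iigp1 cluster at 2.30-fold, with 8 to 11 counts in WT and 19, 18 and 21 in KO, so that all KO libraries were alike. The other 19 lay between 0.65-fold (Btnl9) and 1.34-fold (Zfp692). Pdlim5, a muscle LIM protein next to the chromosome 3 GBPs, measured 329.0 to 362.6 CPM in WT and 323.5 CPM in KO replicate 3, and Mrpl22, next to Igtp, 9.57 to 10.4 and 10.1 CPM. These neighbours were chosen after the values were seen.

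Near-identical copies can blur such counts. Of all 50-base stretches in a member's transcripts, 0.379% (Irgm1) to 12.7% (Gbp7) also occur in transcripts of another gene, and the median over the members was 6.29%. Igtp and Irgm2 share 162 bases of exon on the same strand, 8.01% of the exon length of Igtp, Gbp7 shares 11.3% of its exon length with Gm43802, and Gbp4 and Gbp9 share 60 bases with each other. The part of shared sequence in the members' values was not tested. The sources used here do not say how the authors' counting treated shared reads.

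All 8 smooth muscle markers were detected, as the labels imply, and their summed level was 40232 to 54217 CPM over the 6 libraries, with 44028 CPM in KO replicate 3. Markers of other cells were also detected, and in bulk RNA more cells of a type and more RNA per cell cannot be told apart. Macrophage markers, all 12 tested, summed to 83.2 ± 21.4 CPM in WT (58.8 to 98.8), to 117.4 and 54.7 CPM in KO replicates 1 and 2 and to 145.9 CPM in KO replicate 3, where 11 of 12 were highest. KO replicate 1 also had a higher macrophage sum than any WT library, and its members summed to 132.1 CPM. Endothelial markers summed to 494.2 ± 63.9 CPM in WT, to 539.1 and 501.5 CPM in KO replicates 1 and 2 and to 812.9 CPM in KO replicate 3, with 8 of 10 highest there. Of all 14145 tested rows, 2296 were highest in KO replicate 3. KO replicate 3 was 1.75-fold above the WT mean for macrophage markers, 1.64-fold for endothelial markers and 5.94-fold for the 10 members. The part of these cells in the members' values was not tested, and such ratios cannot decide it.

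T cell markers were close to the detection limit, with 45 counts over 12 genes in KO replicate 3 and 10 to 34 counts in the other 5 libraries. NK cell markers summed to 55 counts in KO replicate 3 and 36 to 66 in the others. Of these, Il2rb gave 28 in KO replicate 3 and 34 to 63 elsewhere, while the other 9 NK markers (among them Tbx21, Klrk1 and Gzma) summed to 27 counts in KO replicate 3 and 2 to 8 elsewhere, with Nkg7 at 0 in all KO libraries. B cell markers (5 counts in KO replicate 3), neutrophil markers (8 counts, with S100a8, Ly6g and Cxcr2 at 0) and adventitial fibroblast markers (1878 CPM against 1057 to 2098 CPM) were not highest in KO replicate 3, nor were heart muscle markers (80.02 CPM against 67.6 to 126.7 CPM). Dendritic cell markers (26.2 CPM against 19.3 to 24.1 CPM, nearly all from Zbtb46) were highest in KO replicate 3, at 1.09-fold the highest other library. Only 1 of these 6 genes passed the filter on low counts, so the sum describes 1 gene rather than a cell type. Adipocyte markers (63.4 CPM against 14.6 to 50.6 CPM) were also highest in KO replicate 3. The part of these cells in the members' levels was not tested. The mitochondrial share of counts was 13.0% in KO replicate 3, below the 18.9% of KO replicate 1, and 5.66% to 9.02% in WT, and its part was not tested either.

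**Figure D5:**
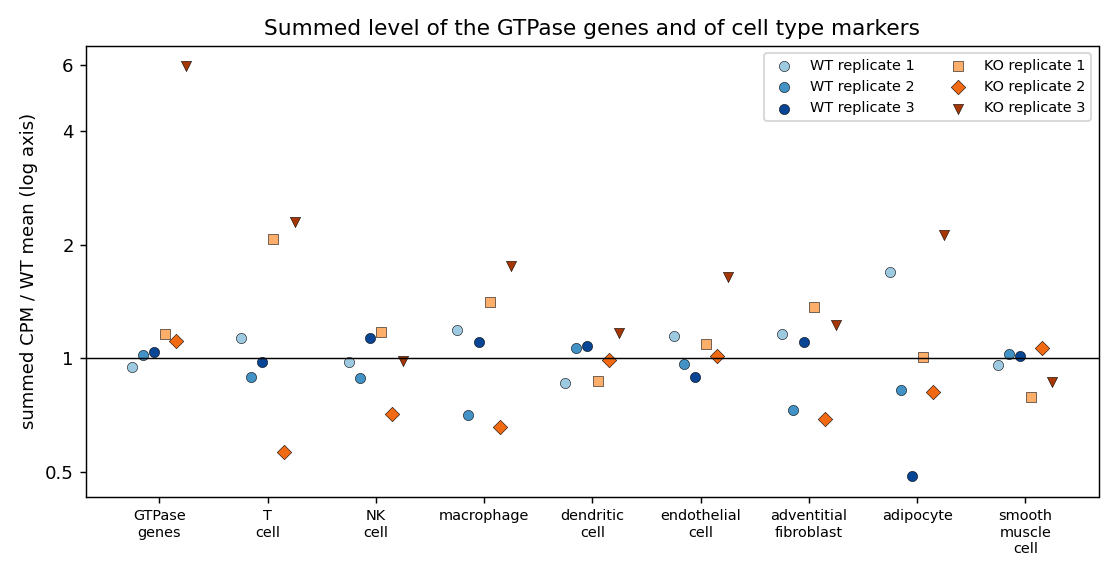
Summed CPM of the 10 GTPase genes and of marker lists for 8 cell types, divided by the mean of the 3 WT libraries (log axis), for each of the 6 libraries. KO replicate 3 reaches 5.94 for the GTPase genes, 1.75 for macrophage and 1.64 for endothelial markers; T and NK cell sums rest on 10 to 66 counts.

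The knockout could not be checked by name, since the table has no row called Mymsl. RP23-57D10.3, the 1 called row, fell from 314, 378 and 273 counts in WT to 0 in every KO library, KO replicate 3 included (adjusted p = 0.00527 in edgeR). A check for libraries entered more than once found none, as the chi-square per gene between libraries was at least 15.2.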

How the data were processed

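Poly(A) RNA of 6 aortic libraries was sequenced after stranded library preparation, per the labels' protocols. Reads were processed with featureCounts (Subread 1.6.1), STAR 2.6.0c and Trimmomatic 0.36 and the build GRCm38, per the submitters' processing notes. The authors deposited unnormalized whole-number counts for each gene. For the annotation, the strand setting and multimapping reads, settings were not stated in these sources.

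Counts were tested with the quasi-likelihood test of edgeR 4.0.16 (R 4.3.3; TMM, filterByExpr with minimum count 10 and minimum total 15; genotype as the only term), adjusted by Benjamini-Hochberg over all 14145 tested rows with a threshold of 0.05. Log2 CPM used a prior count of 2. Each standard error is the fold change divided by the square root of its F value. Alternatives were DESeq2 1.42.0 (test, size factors), limma-voom (limma 3.58.1), other filters, a fit without mitochondrial genes, a replicate block and each library left out. The fit was tested on simulated data.

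The members and lists were chosen with earlier results of these data known. Named genes are all members, up to 6 of each other list by smallest p, and Ifng, Ifngr1, Ifngr2 and Irf1 (1 further gene that the rule names is not reported here); further genes named as examples, by role or by position were chosen after their values were seen. Of the listed family genes, 6 matched no row. Windows are from RefSeq, gene models from GENCODE M21, joined by symbol. Protein sequences were not used here.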

Additional observations from a re-analysis of the deposited data

How the results depend on the processing

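The median log2 fold change of the members stayed above 0 under all alternatives: with size factors of DESeq2 (1.70), the DESeq2 test (1.70), no filter (1.70), a mean count of at least 50 (1.72), mitochondrial genes left out (1.71) and limma-voom (1.10). The members were taken from genes high in a KO library, so a median above 0 is no independent result. Leaving out single libraries gave 0.13 (without KO replicate 3) to 2.14 (without KO replicate 2). The members' median in KO replicate 3, 2.93 relative to WT, was 2.94 with a prior count of 0.5. No setting called a member or another family gene.

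Over all rows, edgeR called 1, DESeq2 204 (67 higher and 137 lower in KO, among 9208 rows with an adjusted p), edgeR without a filter 9, and edgeR 0 to 3 when a library was left out (0 without WT replicate 1, 3 without KO replicate 2). For interferon gamma signalling and targets DESeq2 called 1 gene, Stat2, and edgeR and limma-voom 0; among the dynamin-like GTPases DESeq2 called Ehd2.

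The labels speak of pairs but do not say what a number shares. Deviations from the group means correlated at 0.11, 0.13 and −0.06 for same-numbered libraries (replicates 1 to 3). KO replicates 1 and 2 each correlated best with the WT library of the same number, and KO replicate 3 with WT replicate 1 (0.18). With so few libraries these values cannot decide whether there were pairs, and the main fit did not pair the libraries. With the replicate number as a block, the members' median was 1.08, and 0 rows were called.

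With 3 libraries a group, 1 of them far from the others, the members' KO medians have an SD of 1.6 and the WT medians an SD of 0.079 on the log2 scale. Ifi47 and the other family genes of few counts have the least precise ratios.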

Other observations

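Several family genes too scarce for the test also had their highest counts in KO replicate 3. In WT, Tgtp1 had 1, 12 and 5 counts (replicates 1 to 3), and in KO it had 3, 8 and 94. Gm4841, an IRG-like gene near Iigp1, had 2 to 4 counts in the other 5 libraries and 99 in KO replicate 3. Gbp10 had 0 to 3 counts in the other 5 libraries and 62 in KO replicate 3, and Gbp2b 0 to 3 and 46. Gbp8 (46 counts in KO replicate 3, 1 to 8 elsewhere) and Gvin1, a very large inducible GTPase (29, and 0 to 10 elsewhere), were similar. Gbp11 was not, since WT replicate 1 had 31 counts and KO replicate 3 had 37.

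Inside the clusters lay 13 rows whose names are not on the family lists. Of these, 6 reached in KO replicate 3 at least 2 times every other library, 4 were at 0 throughout and 3 did neither. Whether a clone-named row is a family gene under another name was not checked. AC102225.2, beside Gm4841, had 9 to 23 counts in the other 5 libraries and 141 in KO replicate 3. RP24-499A8.3, beside Igtp, had 3 to 11 and 94, and RP23-14F5.7, beside Irgm1, had 6 or 7 in the other 5 libraries and 47 in KO replicate 3. BC023105, beside Iigp1, had 0 to 8 counts in the other 5 libraries and 53 in KO replicate 3. Olfr56, an olfactory receptor gene whose exons share 111 bases with those of Ifi47 on the same strand, had 1 to 4 counts in the other 5 libraries and 24 in KO replicate 3. AC102225.3 had 0 to 2 counts and 7. The 3 others were Psme2b (7 to 18 counts, then 30 in KO replicate 3), RP23-14F5.8 (1 to 8, then 10) and RP23-269N23.5 (0 to 2, then 1). The clone-named rows have no gene symbol or coordinates in the annotation used, and all of these rows were chosen after their values were seen.

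Among the 66 rows outside all lists at which KO replicate 3 reached at least 2 times every other library were genes of MHC class II, which presents antigen to helper T cells. H2-Aa measured 4.06 to 15.3 CPM in the other 5 libraries and 59.8 CPM in KO replicate 3, H2-Eb1 2.44 to 11.1 and 38.0 CPM, and H2-Ab1 46.2 CPM, 4.61-fold above the highest other library. The class I genes H2-Q4 (13.2 to 16.3 CPM, then 54.9) and H2-Q7 (1.70 to 3.73 CPM, then 14.1) and the macrophage gene Mpeg1 (0.191 to 2.49 CPM, then 8.74) were further examples. These genes were chosen after their values were seen.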
